A study of Mus musculus with 6 samples.

Results

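The genes described here encode proteins of the kidney's intercalated cells, the acid-base regulating cells of the connecting tubule and collecting duct, and the cell-restricted subunits of their proton pump. They were chosen by name as a list of 10 genes, Slc4a1, Slc26a4, Slc4a9, Rhcg, Foxi1, Atp6v1b1, Atp6v0a4, Atp6v1g3, Atp6v1c2 and Atp6v0d2. All 10 were among the 17684 genes in the gene table. All 10 were also tested, among the 13679 genes that reached 10 counts in 3 or more libraries.

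RNA from kidney tissue was sequenced in a Db group of 3 mice and a Db + Ato10 group of 3 mice, 1 library per mouse. All 6 mice were db/db, which lack a working leptin receptor and become obese and diabetic, and were 50 weeks old. Their strain is C57 BLKS/L in the sample records and C57BLKS/J in the methods of the study. The Db group had received normal saline for 40 weeks, and the Db + Ato10 group had received atorvastatin, a statin, at 10 mg/kg on each day of dosing for 40 weeks. One field of the sample records describes atorvastatin for all 6 mice, and the groups follow the titles and the treatment entry, which tell saline from atorvastatin. The comparison asks how kidney RNA differed after long-term atorvastatin in diabetic mice.

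The libraries held 13134930, 11381678 and 12426051 counts in Db replicates 1 to 3 and 14578023, 14667909 and 13133241 counts in Db + Ato10 replicates 1 to 3. At these depths 3 counts of a gene equal between 0.198 and 0.260 CPM (counts relative to library size, scaled by TMM, a normalization for library composition), counting error only. The Db + Ato10 libraries stood far from each other. On the first principal component of log2 CPM, which held 71.1% of the variance, the Db libraries lay at -55.4, -26.9 and -52.0, and Db + Ato10 replicates 1 to 3 lay at 107, 46.1 and -18.8. Db + Ato10 replicate 3 therefore lay next to the Db libraries, and Db + Ato10 replicate 1 lay farthest from them. The neutrophil gene S100a9 stood at 5285 CPM in Db + Ato10 replicate 1 and at or below 42.8 CPM in the 5 other libraries. The tubule injury gene Havcr1 stood at 1.35, 13.6 and 0.646 CPM in Db replicates 1 to 3 and at 115, 274 and 87.9 CPM in Db + Ato10 replicates 1 to 3. Lcn2, which injured tubules and neutrophils express, stood at 3.02, 43.5 and 6.46 CPM in Db replicates 1 to 3 and at 5088, 868 and 308 CPM in Db + Ato10 replicates 1 to 3. Havcr1 and Lcn2 were higher in all 3 Db + Ato10 libraries than in any Db library, with Havcr1 highest in replicate 2 and Lcn2 in replicate 1. These 3 genes were chosen after their values were seen, and the part of injury in the levels of the 10 genes was not tested. Db replicate 1 went against the study's methods, which describe male mice: it held 2 counts over the Y-linked genes Ddx3y, Uty, Kdm5d and Eif2s3y, against 1419 to 2116 in the other libraries. For the 10 genes and the ratios below, the main results that move without one of these libraries are given with and without it, but not every such fit is given. The marker lists and single transcripts were not refitted without a library.

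Intercalated cells move acid or base into the urine with a vacuolar proton pump (V-ATPase), a rotary enzyme whose V1 sector splits ATP and whose V0 sector carries protons across the membrane. Type A cells place the pump on the urinary side and return bicarbonate to the blood through Slc4a1 (AE1), and type B cells secrete bicarbonate through Slc26a4 (pendrin). Loss of several of these genes, among them ATP6V1B1, ATP6V0A4 and SLC4A1, is a known cause of distal renal tubular acidosis.

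Per length, on the TPM scale, the mean level in the Db group ran from 242 ± 16.7 TPM (SD, n = 3) for Atp6v0a4 down to 24.2 ± 1.01 TPM for Foxi1. Rhcg at 137 ± 13.1 TPM and Atp6v1b1 at 112 ± 12.7 TPM came next, and their ranges over the 3 Db libraries overlapped. Atp6v1g3 at 51.5 ± 10.7 TPM and Atp6v1c2 at 48.2 ± 3.44 TPM overlapped in the same way. The levels of Slc4a9 (37.6 ± 5.72 TPM), Slc26a4 (36.6 ± 13.8 TPM), Atp6v0d2 (35.3 ± 8.36 TPM), Slc4a1 (26.4 ± 4.55 TPM) and Foxi1 each overlapped with the next. Atp6v0a4 was thus apart from Rhcg, Atp6v1b1 from Atp6v1g3, and Atp6v1c2 from Slc4a9, and the other neighbours did not differ beyond their spread.

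All 10 genes had lower fitted levels in the Db + Ato10 group. The median of their log2 fold changes was -0.74, and the median of all 13679 tested genes was -0.01. With edgeR's quasi-likelihood test, 0 of the 10 passed the study's criteria for a differentially expressed gene (DEG), an adjusted p (Benjamini-Hochberg) under 0.05 together with a fold over 1.5, and 0% of all tested genes did; 7 of the 10 had an unadjusted p under 0.05, limma-voom called 0 and DESeq2 called 4. Of all tested genes, 5.71% were lower with an unadjusted p under 0.05 in edgeR, beside the 7 of 10 here. In 7 of 10 genes the 3 Db + Ato10 values lay below the 3 Db values, against 11.3% of all tested genes. The 4 DESeq2 calls, Slc4a1, Rhcg, Atp6v1b1 and Atp6v1c2, compare with 1.29% of all tested genes called lower by DESeq2. Db + Ato10 replicate 2 was the lowest library for 7 of the 10 genes, and Db replicate 1 the highest for 7. Without Db replicate 1 the count at an unadjusted p under 0.05 was 4 of 10 (Slc4a1, Rhcg, Atp6v1b1 and Atp6v1c2) in place of 7, and 2.52% of all genes tested in that fit were lower at this threshold. Without Db + Ato10 replicate 3 it was 8, and edgeR then called 2 of the 10 by the DEG criteria, Slc4a1 and Atp6v1b1. In that fit 13.1% of all 13517 genes tested were lower with an unadjusted p under 0.05, and 1106 genes, 8.18%, passed the DEG criteria. In RNA of kidney tissue, fewer cells of a type and less RNA per cell cannot be told apart.

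**Figure D1:**
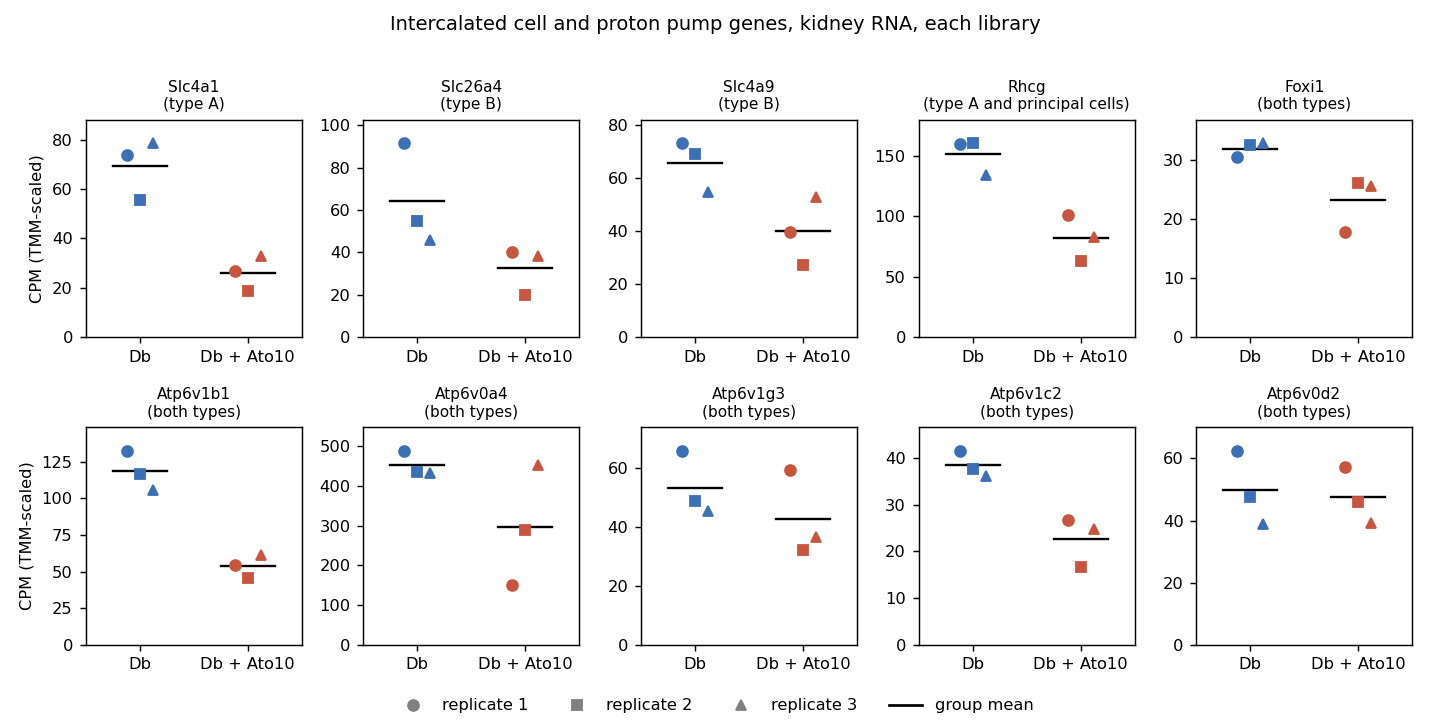
Level of each of the 10 genes in CPM (vertical axis, from 0) in the Db and Db + Ato10 groups, 1 point per library with a marker for each replicate number and a line at the group mean. In 7 of the 10 panels every Db + Ato10 point lies below every Db point, and in those of Atp6v0a4, Atp6v1g3 and Atp6v0d2 the groups overlap.

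Slc4a1, the exchanger through which type A cells pass bicarbonate to the blood, had the largest difference of the 10. It stood at 73.8, 55.7 and 78.7 CPM in Db replicates 1 to 3 and at 26.9, 18.8 and 32.7 CPM in Db + Ato10 replicates 1 to 3. The groups did not overlap, and the highest Db + Ato10 library was well under the lowest Db library. The level was 2.66-fold lower in the Db + Ato10 group (log2 fold change -1.41, SE 0.24; unadjusted p = 0.000862 and Benjamini-Hochberg adjusted p = 0.239 in edgeR's quasi-likelihood test). DESeq2 gave an adjusted p of 0.000328, and over the 16 alternative settings the adjusted p ran from 0.000328 to 0.588. The log2 fold change stayed between -1.60 and -1.20 when each library was left out in turn.

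Slc4a1 is also the band 3 protein of red cells, so erythroid markers were read beside it. Of the 9 erythroid markers, 6 were tested, 5 of these were lower and 0 had an unadjusted p under 0.05 in edgeR, and both edgeR and DESeq2 called 0. Among all tested genes, 5.71% were lower with such a p in edgeR and DESeq2 called 1.29% lower. The median log2 fold change of the 6 erythroid markers tested was -1.37, close to the -1.41 of Slc4a1. The 1 that was higher reached 10 counts in no Db library, so the filter set its direction. Their summed level was 3596, 3153 and 13203 TPM in Db replicates 1 to 3 and 4057, 864 and 1916 TPM in Db + Ato10 replicates 1 to 3, with the globin gene Hba-a1 the most abundant. The sum, like Slc4a1, was highest in Db replicate 3 and lowest in Db + Ato10 replicate 2, and its groups overlapped. The part of red-cell RNA in the level of Slc4a1 was not tested. Rhag, a red-cell ammonia channel, was at or below 0.198 CPM in every library, no more than the level of 3 counts.

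The other markers of type A cells did not share the pattern of Slc4a1. Aqp6, a water and anion channel of type A cells and the most abundant gene of their list, stood at 72.9, 71.3 and 72.9 CPM in Db replicates 1 to 3. In Db + Ato10 replicates 1 to 3 it stood at 72.9, 50.4 and 80.8 CPM. The Aqp6 groups overlapped, with Db + Ato10 replicate 2 the lowest library and Db + Ato10 replicate 3 the highest, and the log2 fold change was -0.09 (SE 0.19). The receptor kinase gene Kit had a log2 fold change of -0.29 (SE 0.27) and the transcription factor gene Dmrt2 one of 0.08 (SE 0.30), both with overlapping groups. Of the 4 type A markers, Slc4a1 included, 3 were lower, 1 was higher and 1, Slc4a1, had an unadjusted p under 0.05, with a median log2 fold change of -0.19. Among all tested genes, 5.71% were lower with such a p in edgeR. Kit, Dmrt2 and the overlapping type B markers below were named after their values were seen.

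Of the type B exchangers, Slc26a4 and Slc4a9 were lower in every Db + Ato10 library than in any Db library, and Slc4a8 was not. Slc4a8, a sodium-dependent exchanger named after its values were seen, stood at 14.5, 15.4 and 17.4 CPM in Db replicates 1 to 3 and at 17.8, 10.3 and 15.1 CPM in Db + Ato10 replicates 1 to 3. Its groups overlapped, Db + Ato10 replicate 1 was its highest library, and its log2 fold change was -0.13 (SE 0.24). Slc26a4, the chloride-bicarbonate exchanger on the urinary side, stood at 91.6, 55.0 and 45.9 CPM in Db replicates 1 to 3 and at 40.0, 19.8 and 38.0 CPM in Db + Ato10 replicates 1 to 3. Db replicate 1 was far above the other libraries, and Db + Ato10 replicate 2 was far below them. The level was 1.97-fold lower in the Db + Ato10 group (log2 fold change -0.98, SE 0.36; unadjusted p = 0.0324 and Benjamini-Hochberg adjusted p = 0.267 in edgeR's quasi-likelihood test). Without Db replicate 1 the log2 fold change was -0.61 (SE 0.34) and the unadjusted p from edgeR 0.125. Without Db + Ato10 replicate 2 the same p was 0.0833 and the log2 fold change -0.70 (SE 0.33).

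Slc4a9 (AE4), an anion exchanger on the blood side of type B cells, stood at 73.2, 69.0 and 54.6 CPM in Db replicates 1 to 3. In Db + Ato10 replicates 1 to 3 it stood at 39.8, 27.1 and 52.8 CPM. The groups did not overlap, but Db + Ato10 replicate 3 was within a few percent of Db replicate 3. The log2 fold change was -0.72 (SE 0.26; unadjusted p = 0.0303 and Benjamini-Hochberg adjusted p = 0.262 in edgeR's quasi-likelihood test), with an unadjusted p of 0.0969 without Db replicate 1, 0.0793 without Db replicate 2, 0.0501 without the first and 0.0638 without the second Db + Ato10 library. The log2 fold changes in these left-out fits were -0.62, -0.68, -0.71 and -0.49. Without Db replicate 3 the log2 fold change was -0.83, with an unadjusted p of 0.0335 in edgeR. Without Db + Ato10 replicate 3 it was -0.97, with an unadjusted p of 0.00642.

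All 7 type B markers, Slc26a4 and Slc4a9 included, had lower fitted levels, 4 of them with an unadjusted p under 0.05 in edgeR and 3 with groups that did not overlap, and the median log2 fold change was -0.72. edgeR called 0 of them by the DEG criteria and DESeq2 called 1. That gene was Insrr, the insulin receptor-related receptor, which senses alkali. Among all tested genes, 5.71% were lower with an unadjusted p under 0.05 in edgeR, 11.3% were lower without overlap and DESeq2 called 1.29% lower. Insrr stood at 41.0, 29.4 and 27.9 CPM in Db replicates 1 to 3 and at 14.0, 8.04 and 20.1 CPM in Db + Ato10 replicates 1 to 3. The Insrr groups did not overlap, and the log2 fold change was -1.23 (SE 0.35; unadjusted p = 0.0109 and Benjamini-Hochberg adjusted p = 0.239 in edgeR's quasi-likelihood test). Oxgr1, the oxoglutarate receptor of type B cells, had a log2 fold change of -1.14 (SE 0.42) with groups that overlapped in Db + Ato10 replicate 3, at 18.7 CPM, and Db replicate 3, at 17.9 CPM. The most abundant marker per length, Spink8, averaged 47.6 TPM in the Db group and 38.7 TPM in the Db + Ato10 group, with a log2 fold change of -0.19 (SE 0.31). The summed level of the type B markers was 200, 145 and 119 TPM in Db replicates 1 to 3 and 103, 66.1 and 113 TPM in Db + Ato10 replicates 1 to 3. That of the type A markers was 108, 98.0 and 105 TPM in Db replicates 1 to 3 and 81.1, 63.1 and 89.1 TPM in Db + Ato10 replicates 1 to 3. Neither sum overlapped between the groups. Without Slc4a1, a sum chosen after seeing the data, the 3 other type A markers reached 80.3, 76.7 and 75.6 TPM in Db replicates 1 to 3 and 71.9, 56.0 and 77.4 TPM in Db + Ato10 replicates 1 to 3, which overlapped. No test between the type A and type B lists was made.

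**Figure D2:**
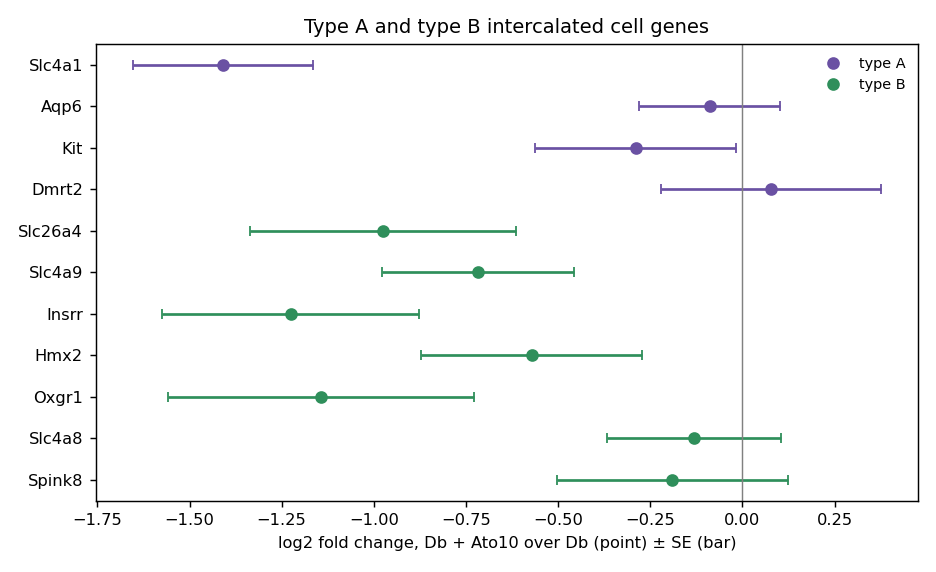
Log2 fold change of the Db + Ato10 group over the Db group (horizontal axis, points, with bars of 1 SE) for 4 type A genes (purple) and 7 type B genes (green). Slc4a1 lies at -1.41 while Aqp6, Kit and Dmrt2 lie between -0.29 and 0.08, and the type B genes lie between -1.23 and -0.13.

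Slc4a1 was also set against the type B exchangers within each library, as a log2 ratio of CPM values. These ratios stand for Slc4a1 alone and not for the type A list, whose median log2 fold change of -0.19 lay above the -0.72 of the type B list, opposite to the ratios. For Slc4a1 over Slc4a9 the ratio was 0.01, -0.31 and 0.53 in Db replicates 1 to 3 and -0.56, -0.53 and -0.69 in Db + Ato10 replicates 1 to 3. The 3 Db + Ato10 libraries were close to each other and all below the Db libraries. The difference was -0.67, with p = 0.1 in a two-sided exact permutation test, the smallest p that 3 against 3 libraries allow, and 0.133 after Benjamini-Hochberg adjustment over the 4 ratios tested. Without Db replicate 3 the difference was -0.45. For Slc4a1 over Slc26a4 the ratio was -0.31, 0.02 and 0.78 in Db replicates 1 to 3 and -0.57, -0.08 and -0.22 in Db + Ato10 replicates 1 to 3. Here the groups overlapped, and the difference of -0.45 had an exact permutation p of 0.3. Leaving out Db replicate 3, where the ratio was highest, brought that difference to -0.14, and leaving out Db replicate 1 brought it to -0.69.

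Rhcg, an ammonia channel of type A intercalated, principal and connecting tubule cells, stood at 160, 161 and 134 CPM in Db replicates 1 to 3 and at 101, 63.3 and 82.7 CPM in Db + Ato10 replicates 1 to 3. All Db + Ato10 libraries were below all Db libraries. Its level was 1.84-fold lower in the Db + Ato10 group (log2 fold change -0.88, SE 0.20; unadjusted p = 0.00385 and Benjamini-Hochberg adjusted p = 0.239 in edgeR's quasi-likelihood test), and DESeq2 gave an adjusted p of 0.0108. Over the 16 alternative settings the adjusted p ran from 0.0108 to 0.588. In DESeq2 fits with 1 library left out, added after seeing the data, Rhcg was not called without Db replicate 1, 2 or 3 (adjusted p 0.151, 0.0966 and 0.063). The log2 fold changes in those fits were -0.83, -0.83 and -0.95.

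Of the 3 transcripts listed for Rhcg, the most counted pair did not move alike. NM_019799.3 had 1726, 1574 and 1341 estimated counts in Db replicates 1 to 3 and 910, 624 and 857 in Db + Ato10 replicates 1 to 3. XM_006541004.1, a predicted transcript, had 276, 264 and 304 estimated counts in Db replicates 1 to 3 and 610, 314 and 193 in Db + Ato10 replicates 1 to 3. The first did not overlap between the groups (log2 fold change -1.14, SE 0.22; unadjusted p = 0.0022 and Benjamini-Hochberg adjusted p = 0.359 over 30175 transcripts in edgeR's quasi-likelihood test), and the second did (log2 fold change 0.19, SE 0.39). XM_006541004.1 took 13.7%, 14.2% and 18.3% of the gene's counts in Db replicates 1 to 3 and 39.8%, 33.5% and 18.3% in Db + Ato10 replicates 1 to 3. Its share was high in Db + Ato10 replicates 1 and 2 and within rounding the same in Db + Ato10 replicate 3 and Db replicate 3. The last, XM_011250878.2, had 14.5, 17.4 and 13.3 estimated counts in Db replicates 1 to 3 and 11.8, 0 and 0 in Db + Ato10 replicates 1 to 3. Its groups did not overlap at these low counts (log2 fold change -2.09, SE 1.71; unadjusted p = 0.268 in edgeR). The difference in share was not tested, and the transcripts share reads that the authors' counting had to divide. Squamous epithelium markers moved with the libraries: 5 of 9 were tested, all 5 were higher with an unadjusted p under 0.05, edgeR called 0 and DESeq2 called 4. For 3 of the 5 (Krt5, Krt14 and Krt15), which are 3 of the 4 DESeq2 calls, every Db library was under 10 counts, so the filter admitted them through the Db + Ato10 group and their direction was set by it. Of all tested genes, 11.2% were higher with an unadjusted p under 0.05 in edgeR and 5.17% were called higher by DESeq2. The summed level of the squamous markers was 5.29, 6.85 and 4.26 TPM in Db replicates 1 to 3. In Db + Ato10 replicates 1 to 3 it was 167, 137 and 57.2 TPM. Sprr1a was the most abundant by mean TPM over all libraries, but Krt5 and Krt15 were above it in Db + Ato10 replicate 1. Krt13, Krt6a and Dsg3 were at 0 in every Db library and at or below 0.132 CPM in the Db + Ato10 libraries. Their part in the Rhcg transcript shares was not tested.

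Rhcg belongs to a list of 10 transport genes that intercalated cells share with other tubule cells. In that list 9 genes were lower and 1 was higher, 5 had an unadjusted p under 0.05 and groups that did not overlap, edgeR called 0 and DESeq2 called 4, and the median log2 fold change was -0.59. The shares over all tested genes were 5.71% lower with such a p in edgeR, 11.3% lower without overlap and 1.29% called lower by DESeq2. Bsnd, the subunit that chloride channels of the distal nephron need, stood at 71.2, 83.2 and 94.2 CPM in Db replicates 1 to 3 and at 46.8, 32.7 and 47.4 CPM in Db + Ato10 replicates 1 to 3. Rhbg, the ammonia channel of the blood side, stood at 73.2, 62.7 and 55.7 CPM in Db replicates 1 to 3 and at 40.5, 24.5 and 28.4 CPM in Db + Ato10 replicates 1 to 3. Neither gene overlapped between the groups, and the log2 fold changes were -0.97 (SE 0.20) for Bsnd and -1.03 (SE 0.22) for Rhbg. Car2, carbonic anhydrase 2 and the most abundant gene of the list, averaged 651 TPM in the Db group and 455 TPM in the Db + Ato10 group with overlapping groups.

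Foxi1, the forkhead transcription factor that intercalated cells require, had, among the 10 genes, the smallest spread in the Db group for its level. It stood at 30.4, 32.4 and 32.8 CPM in Db replicates 1 to 3 and at 17.7, 26.1 and 25.5 CPM in Db + Ato10 replicates 1 to 3. All Db + Ato10 libraries were below the Db libraries, and Db + Ato10 replicate 1 was lowest. The level was 1.38-fold lower (log2 fold change -0.46, SE 0.18; unadjusted p = 0.0407 and Benjamini-Hochberg adjusted p = 0.281 in edgeR's quasi-likelihood test). The unadjusted p was 0.0713, 0.098 and 0.104 without Db replicates 1, 2 and 3 and 0.0589 without Db + Ato10 replicate 1, where the log2 fold change was -0.30 (SE 0.13). Without Db replicates 1, 2 and 3 the log2 fold change was -0.49, -0.45 and -0.44. Foxi1 belongs to a list of 7 genes of both intercalated cell types, of which all but Hepacam2 are among the 10 genes. All 7 had lower fitted levels, with a median log2 fold change of -0.61. In that list 3 had an unadjusted p under 0.05, edgeR called 0 and DESeq2 called 2. The shares over all tested genes were 5.71% lower with such a p in edgeR and 1.29% called lower by DESeq2.

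Atp6v1b1, the B1 subunit of the V1 sector, where ATP is bound, is restricted to intercalated and a few other acid-secreting cells. It stood at 133, 117 and 106 CPM in Db replicates 1 to 3 and at 54.1, 45.6 and 61.4 CPM in Db + Ato10 replicates 1 to 3. The groups were far apart relative to the spread within each. The level was 2.21-fold lower in the Db + Ato10 group (log2 fold change -1.14, SE 0.16; unadjusted p = 0.000306 and Benjamini-Hochberg adjusted p = 0.239 in edgeR's quasi-likelihood test), the smallest unadjusted p of the 10 genes. DESeq2 gave an adjusted p of 9.83e-06, and over the 16 alternative settings the adjusted p ran from 9.83e-06 to 0.588. Its log2 fold change stayed between -1.24 and -1.02 with each library left out.

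Atp6v1c2, a C subunit isoform of the V1 sector, stood at 41.6, 37.8 and 36.3 CPM in Db replicates 1 to 3 and at 26.7, 16.6 and 24.9 CPM in Db + Ato10 replicates 1 to 3. These groups did not overlap either, and Db + Ato10 replicate 2 was lowest. The log2 fold change was -0.76 (SE 0.20; unadjusted p = 0.0083 and Benjamini-Hochberg adjusted p = 0.239 in edgeR's quasi-likelihood test), and DESeq2 gave an adjusted p of 0.0484, just under its threshold. The DESeq2 call was lost without Db replicate 1, 2 or 3 (adjusted p 0.319, 0.171 and 0.210) and without Db + Ato10 replicate 2 (0.0789). In these DESeq2 fits the log2 fold changes were -0.69, -0.77, -0.79 and -0.56.

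Atp6v1g3, the kidney G subunit of the V1 sector, stood at 65.9, 48.9 and 45.2 CPM in Db replicates 1 to 3 and at 59.4, 32.3 and 36.5 CPM in Db + Ato10 replicates 1 to 3. The groups overlapped because Db + Ato10 replicate 1 lay above Db replicates 2 and 3. The log2 fold change was -0.32 (SE 0.27), and without Db + Ato10 replicate 1 it was -0.62 (SE 0.20) with an unadjusted p of 0.0192 in edgeR. It was -0.12 without Db replicate 1, -0.13 without the second and -0.21 without the third Db + Ato10 library. Atp6v0d2, a d subunit isoform of the V0 sector that osteoclasts and some macrophages also express, stood at 62.5, 47.6 and 39.0 CPM in Db replicates 1 to 3. In Db + Ato10 replicates 1 to 3 it stood at 57.2, 45.9 and 39.1 CPM. The 2 groups covered nearly the same range. Its log2 fold change was -0.07 (SE 0.23), and the sign changed without Db replicate 1, to 0.14, and without the third Db + Ato10 library, to 0.06. It was -0.22 without Db replicate 3, -0.22 without the first and -0.03 without the second Db + Ato10 library.

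Markers of macrophages moved with the libraries in which Atp6v0d2 was measured. All 8 macrophage markers were higher in the Db + Ato10 group with an unadjusted p under 0.05, 5 with groups that did not overlap, edgeR called 0 and DESeq2 called 7, and the median log2 fold change was 3.25. Of all 13679 tested genes, 11.2% were higher with such a p, 1640 genes had higher groups without overlap, and DESeq2 called 5.17% higher. Their summed level was 164, 366 and 249 TPM in Db replicates 1 to 3 and 7383, 2191 and 368 TPM in Db + Ato10 replicates 1 to 3, with the lysozyme gene Lyz2 the most abundant. Of the 5 markers of lipid-associated macrophages and osteoclasts, all were higher, 4 with an unadjusted p under 0.05, edgeR called 0 and DESeq2 called 4. These summed to 96.7, 107 and 119 TPM in Db replicates 1 to 3 and to 497, 247 and 108 TPM in Db + Ato10 replicates 1 to 3, with Acp5 the most abundant. Tcirg1, the a3 subunit of the pump in osteoclasts and macrophages, stood at 21.1, 22.1 and 28.2 CPM in Db replicates 1 to 3 and at 114, 47.3 and 26.0 CPM in Db + Ato10 replicates 1 to 3. Tcirg1 was high in Db + Ato10 replicates 1 and 2, as the macrophage markers were, and its groups overlapped. It was named after its values were seen. The part of macrophage RNA in the level of Atp6v0d2 was not tested.

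Atp6v0a4, the a4 subunit of the V0 sector, is found in intercalated cells and also in proximal tubule cells. It was the most abundant of the 10 genes per length in every library except Db + Ato10 replicate 1, where Rhcg was above it. Atp6v0a4 stood at 489, 436 and 433 CPM in Db replicates 1 to 3 and at 150.0, 289 and 453 CPM in Db + Ato10 replicates 1 to 3. Db + Ato10 replicate 3 lay inside the Db range, and Db + Ato10 replicate 1 was far below it. The log2 fold change was -0.61 (SE 0.38; unadjusted p = 0.161 and Benjamini-Hochberg adjusted p = 0.428 in edgeR's quasi-likelihood test). Leaving out the first Db + Ato10 library gave -0.28 (SE 0.23), and leaving out the third gave -1.04 (SE 0.31; unadjusted p = 0.0156). The counts of this gene had decimals although 1 transcript is listed for it, so some of its reads may be shared with another gene.

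The summed level of proximal tubule markers was also low in Db + Ato10 replicates 1 and 2. All 6 were lower in the fit, 0 had an unadjusted p under 0.05, edgeR and DESeq2 each called 0, 1 had groups that did not overlap, and the median log2 fold change was -0.78. Of all tested genes, 5.71% were lower with such a p in edgeR, 11.3% were lower without overlap and DESeq2 called 1.29% lower. The 6 markers summed to 6319, 5408 and 6387 TPM in Db replicates 1 to 3. In Db + Ato10 replicates 1 to 3 they summed to 729, 3843 and 6539 TPM. By mean TPM over all libraries the phosphate transporter gene Slc34a1 was the most abundant, but Slc27a2 was above it in Db + Ato10 replicates 1 and 2. The sum was lowest in Db + Ato10 replicate 1, next in replicate 2 and highest in replicate 3, whereas Atp6v0a4 was highest in Db replicate 1. Slc5a2, 1 of the 6 and named after its values were seen, was lowest in Db + Ato10 replicate 2, at 53.7 CPM, with 92.5 CPM in replicate 1. Slc22a6, named in the same way, was inside its Db range in Db + Ato10 replicate 2, at 728 CPM. The part of proximal tubule RNA in the level of Atp6v0a4 was not tested.

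**Figure D3:**
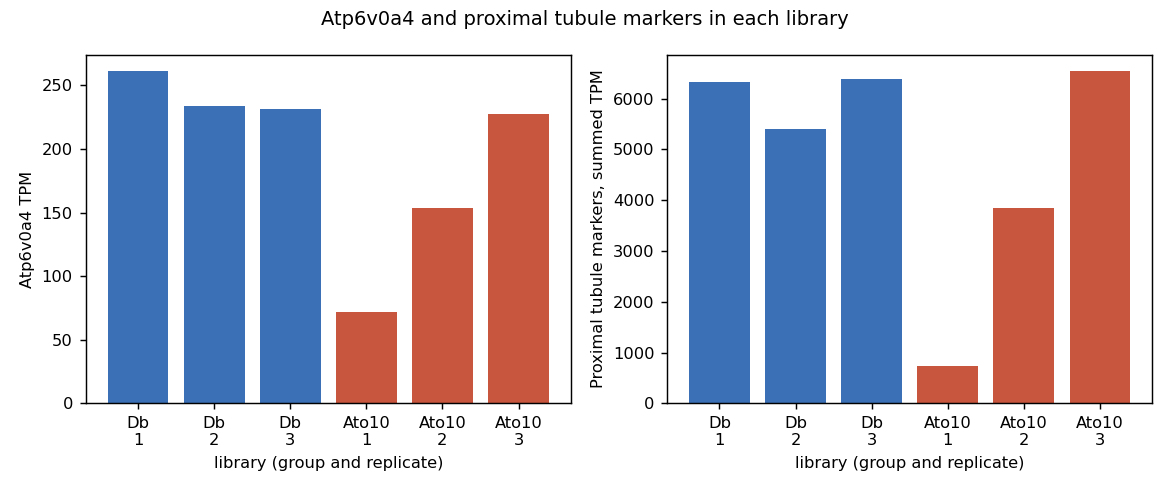
TPM of Atp6v0a4 (left) and summed TPM of 6 proximal tubule markers (right) as bars from 0 for each library, Db in blue and Db + Ato10 in red. Both are lowest in Db + Ato10 replicate 1, at 71.7 and 729 TPM, and reach 228 and 6539 TPM in Db + Ato10 replicate 3.

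The pump subunits that most cells express gave a reference for the intercalated cell subunits. Of these 17 genes 9 were lower and 8 higher, 0 were lower and 1 was higher with an unadjusted p under 0.05, edgeR and DESeq2 each called 0, and the median log2 fold change was -0.13. The summed level was 5011, 4866 and 4859 TPM in Db replicates 1 to 3 and 4714, 4757 and 4505 TPM in Db + Ato10 replicates 1 to 3, with Atp6v0c, the proton-carrying ring subunit, the most abundant at a mean of 1071 TPM over all libraries. The sums of the 2 groups lay within a narrow range, with the Db + Ato10 libraries below the Db libraries. Of all tested genes, 5.71% were lower and 11.2% higher with an unadjusted p under 0.05 in edgeR. DESeq2 called 1.29% of them lower and 5.17% higher. Among the 17, the gene with the small p was Atp6v0a1, the a1 subunit, at 73.8, 76.8 and 69.0 CPM in Db replicates 1 to 3 and 101, 113 and 81.1 CPM in Db + Ato10 replicates 1 to 3. Atp6v0a1 was higher in all 3 Db + Ato10 libraries than in any Db library (log2 fold change 0.42, SE 0.16; unadjusted p = 0.0336 and Benjamini-Hochberg adjusted p = 0.268 in edgeR's quasi-likelihood test). The opposite held for 2 subunits, Atp6v1e1 and Atp6v1h, named after their values were seen, which were lower in all 3 Db + Ato10 libraries, with log2 fold changes of -0.22 (SE 0.16) and -0.31 (SE 0.15).

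The counterparts of the other subunits had overlapping groups. The log2 fold change was -0.24 (SE 0.27) for Atp6v1b2, the widely expressed B subunit, and -0.13 (SE 0.15) for the C subunit Atp6v1c1. It was 0.06 (SE 0.14) for the G subunit Atp6v1g1 and 0.02 (SE 0.16) for the d subunit Atp6v0d1. Within each library the log2 CPM ratio of Atp6v1b1 to Atp6v1b2 was -1.71, -1.47 and -1.84 in Db replicates 1 to 3 and -2.00, -2.87 and -2.74 in Db + Ato10 replicates 1 to 3. The groups did not overlap, and the ratio was 1.82-fold lower in the Db + Ato10 group (difference -0.86, exact permutation p = 0.1, 0.133 adjusted over the 4 ratios). The ratio of Atp6v0a4 to Atp6v0a1 was 2.73, 2.51 and 2.65 in Db replicates 1 to 3 and 0.58, 1.36 and 2.48 in Db + Ato10 replicates 1 to 3. Db + Ato10 replicate 3 came close to the lowest Db library without reaching it, and the difference was -1.16 (exact permutation p = 0.1, 0.133 adjusted). It was -0.71 without Db + Ato10 replicate 1.

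**Figure D4:**
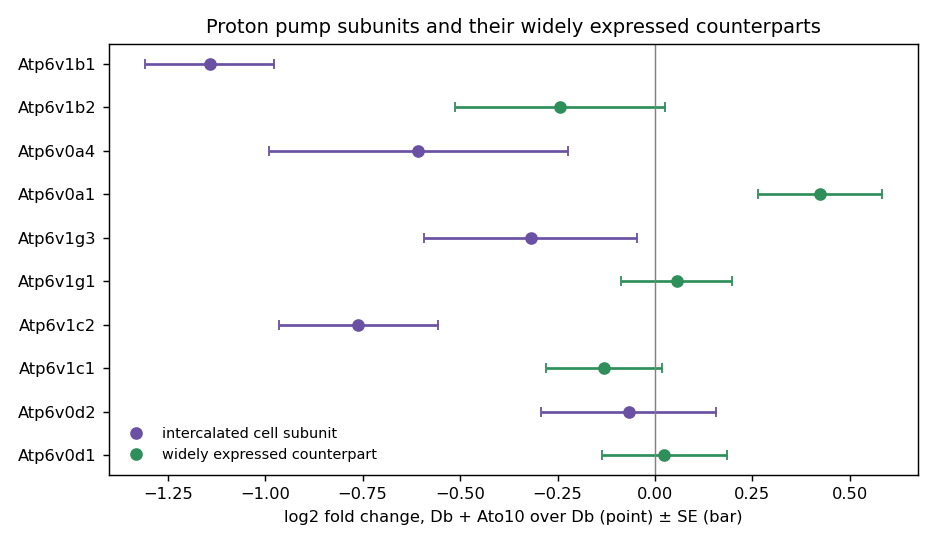
Log2 fold change of the Db + Ato10 group over the Db group (horizontal axis, points, with bars of 1 SE) for 5 intercalated cell subunits of the proton pump (purple), each followed by its widely expressed counterpart (green). Atp6v1b1, Atp6v0a4 and Atp6v1c2 lie at -1.14, -0.61 and -0.76, and their counterparts Atp6v1b2, Atp6v0a1 and Atp6v1c1 at -0.24, 0.42 and -0.13. Atp6v1g3 and Atp6v0d2 lie nearer to their counterparts, at -0.32 against 0.06 for Atp6v1g1 and at -0.07 against 0.02 for Atp6v0d1.

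Lower levels were also measured for markers of the neighbouring tubule cells. All 8 principal cell markers were lower, 5 with an unadjusted p under 0.05 in edgeR and 2 called by DESeq2, with a median log2 fold change of -0.73, close to that of the 10 genes. They summed to 1021, 833 and 1378 TPM in Db replicates 1 to 3 and to 756, 532 and 809 TPM in Db + Ato10 replicates 1 to 3, with the water channel gene Aqp2 the most abundant. Scnn1g, a sodium channel subunit, Hsd11b2, which inactivates glucocorticoids, and Avpr2, the vasopressin receptor, had the smallest p-values, with log2 fold changes of -0.78 (SE 0.16), -0.68 (SE 0.15) and -0.85 (SE 0.30). Of the 6 distal convoluted and connecting tubule markers, 5 were lower and 4 had an unadjusted p under 0.05, with a median log2 fold change of -1.12, and DESeq2 called 2. That list summed to 2181, 2342 and 1585 TPM in Db replicates 1 to 3 and to 1040, 534 and 974 TPM in Db + Ato10 replicates 1 to 3, with Calb1 the most abundant. All 6 thick ascending limb markers were lower, 4 with an unadjusted p under 0.05 and 4 called by DESeq2, with a median log2 fold change of -1.10. They summed to 4763, 5398 and 4981 TPM in Db replicates 1 to 3 and to 2687, 1407 and 3583 TPM in Db + Ato10 replicates 1 to 3, with Umod the most abundant. edgeR called 0 genes of these 3 lists by the DEG criteria. Among all tested genes, 5.71% were lower with an unadjusted p under 0.05 in edgeR and DESeq2 called 1.29% lower. None of the 3 sums overlapped between the groups, and whether the intercalated cell genes differed more or less than these lists was not tested.

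Of the transcripts listed for the 10 genes, 21 of 30 were tested, 6 had an unadjusted p under 0.05 in edgeR, edgeR called 0 by the DEG criteria and DESeq2 called 3. All 6 were lower, and of all 30175 transcripts tested 2.81% were lower with an unadjusted p under 0.05 in edgeR. In either direction edgeR called 0% of all transcripts and DESeq2 called 2.95%. Slc4a1, Foxi1, Atp6v1b1, Atp6v0a4 and Atp6v1g3 each had 1 transcript. Slc4a9 had 10, of which NM_001271544.1 took the largest share in each Db library. In Db + Ato10 replicate 1 it took 17.9%, below NM_172830.2 at 28.9% and XM_011246919.2 at 26.9%. In Db + Ato10 replicates 2 and 3 NM_001271544.1 again took the largest share, at 48.7% and 39.8%. This transcript had 409, 469 and 384 estimated counts in Db replicates 1 to 3 and 108, 195 and 266 in Db + Ato10 replicates 1 to 3. Its groups did not overlap (log2 fold change -1.31, SE 0.39; unadjusted p = 0.0162 and Benjamini-Hochberg adjusted p = 0.521 in edgeR's quasi-likelihood test). The next most counted, NM_172830.2, had 180, 139 and 89.6 estimated counts in Db replicates 1 to 3 and 175, 51.6 and 156 in Db + Ato10 replicates 1 to 3, which overlapped. Atp6v1c2 had 6 transcripts and 1 of them, XM_006515199.3, was tested, with a log2 fold change of -0.75 (SE 0.21).

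Because all 10 genes had lower fitted levels, their promoters were searched for short letter strings of transcription factor families. RefSeq promoters of 300 bases around the gene start, on build GRCm38.p6, were at hand for 7 of the 10: Slc26a4, Rhcg, Foxi1, Atp6v1b1, Atp6v0a4, Atp6v1g3 and Atp6v1c2. The forkhead string GTAAACA, searched on both strands as all others, was in 1 of the 7, Atp6v1b1, and in 3.65% of 32851 promoters. Its shorter form TGTTTA, which overlaps it, was in the same promoter and in 13.4% of all promoters. The forkhead core AAACA was in 4 of the 7 (Slc26a4, Foxi1, Atp6v1b1 and Atp6v1g3) and in 50.5% of all promoters, and the form TGTTTGC, which contains TGTTT, the core read on the other strand, was in 0 of the 7 and in 5.07%. For the grainyhead and CP2 family, to which the collecting duct factor Tfcp2l1 belongs, ACCGG was in 3 of the 7 (Rhcg, Foxi1 and Atp6v1c2) and in 24.3% of all promoters. The palindrome AACCGGTT, which contains it, was in 0 of the 7 and in 0.146%, and CTGGTT was in 2 of the 7 (Foxi1 and Atp6v0a4) and in 16.5%. The partial octamer TTTGCAT was in 1 of the 7, Atp6v1c2, and in 4.63%. The strings and the promoters shown were chosen after the expression values and the matches had been seen, and all 8 strings searched are given. A match is a match of letters and no measure of binding.

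One promoter is shown for each of a pump subunit, a type B gene and the ammonia channel, all genes whose groups did not overlap, 5′ to 3′ on the strand of the gene. Atp6v1b1 is at chr6:83742767-83743066 on the plus strand, with the forkhead string in capitals on its other strand as TGTTTAC. Slc26a4 is at chr12:31559935-31560234 on the minus strand, with the forkhead core in capitals. Rhcg is at chr7:79617608-79617907 on the minus strand, with ACCGG in capitals on its other strand as CCGGT.
Atp6v1b1: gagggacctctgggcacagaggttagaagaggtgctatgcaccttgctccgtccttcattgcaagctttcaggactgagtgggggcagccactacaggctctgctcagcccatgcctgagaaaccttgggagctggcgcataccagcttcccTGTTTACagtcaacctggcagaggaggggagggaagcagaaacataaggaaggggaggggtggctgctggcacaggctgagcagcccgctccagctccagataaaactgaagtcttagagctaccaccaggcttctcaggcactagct
Slc26a4: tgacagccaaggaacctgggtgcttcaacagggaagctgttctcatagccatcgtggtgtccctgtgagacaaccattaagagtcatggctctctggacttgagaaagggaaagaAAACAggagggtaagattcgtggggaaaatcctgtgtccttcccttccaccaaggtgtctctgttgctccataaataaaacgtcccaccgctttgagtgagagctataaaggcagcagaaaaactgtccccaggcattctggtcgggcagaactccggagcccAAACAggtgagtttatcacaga
Rhcg: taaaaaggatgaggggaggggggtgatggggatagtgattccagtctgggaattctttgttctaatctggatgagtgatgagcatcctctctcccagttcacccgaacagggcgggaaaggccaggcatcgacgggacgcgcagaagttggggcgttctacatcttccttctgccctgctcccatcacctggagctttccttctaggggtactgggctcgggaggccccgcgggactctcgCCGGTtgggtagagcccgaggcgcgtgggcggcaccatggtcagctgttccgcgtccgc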

How the data were processed

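Kidney RNA of 6 mice was sequenced on the BGISEQ-500 platform, 1 library per mouse. Expected counts, the estimated reads of each gene and transcript, were deposited by the authors without normalization, and 91.3% of the gene values were whole (within 1e-09). FPKM (per length and library size) and TPM (per length, with a common total) were deposited by the authors too. The submitters' notes name HISAT, Bowtie2 2.2.5 and build mm9, with no role given; the counter and the strand use in counting are not given in the sources used here.

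Expected counts were rounded, and genes reaching 10 counts in 3 or more libraries were tested over the whole table by the quasi-likelihood test of edgeR 4.0.16 after TMM normalization (R 4.3.3). SE was the size of the log2 fold change over the square root of F. Ratios were compared by two-sided exact permutation tests. Library totals ran from 11381678 to 14667909 counts. Alternatives were DESeq2 1.42.0, limma-voom (limma 3.58.1), other scalings and filters, limma on log2 FPKM or TPM, the replicate number as a block, and each library left out. DESeq2 with each library left out was added after seeing the data. On simulated data with 200 changed genes the edgeR fit called 185, of which 177 were changed and 8 were not. The simulation gave both groups the spread of the Db libraries and changed only well-counted genes. The Db + Ato10 libraries spread more, with a lowest Spearman correlation of 0.869 against 0.980 within Db. It therefore checks the code and cannot tell what share of changed genes the fit finds in these data.

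The members and lists were chosen with earlier results of these data known. The most abundant gene of a list is the one with the highest mean TPM over all libraries, and it need not lead in each library. The text names every member and the widely expressed counterparts of member subunits. From other lists it names the most abundant gene and, in some lists, up to 3 genes with the smallest unadjusted p under 0.05 whose groups do not overlap. Such genes are not all named for the distal convoluted and connecting tubule, thick ascending limb, macrophage, and lipid-associated macrophage and osteoclast lists. Other names were chosen after seeing values. RefSeq promoters are on GRCm38.p6, not the build of the notes, and were matched by symbol. Python 3.11.15 with matplotlib 3.10.9 drew the figures.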

Additional observations from a re-analysis of the deposited data

How the results depend on the processing

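Each log2 fold change of the 10 genes was recomputed under 16 settings. For 9 genes the direction was the same in all 16; for Atp6v0d2 it was the same in 14 and reversed to 0.14 without Db replicate 1 and to 0.06 without Db + Ato10 replicate 3, with a range of -0.22 to 0.14 over the libraries left out. The number of genes past the DEG criteria was 0 in edgeR and 4 in DESeq2, and from 0 to 2 in edgeR with a library left out; 2 was reached without Db + Ato10 replicate 3. The number with an unadjusted p under 0.05 was 7 and ran from 4 without Db replicate 1 to 8 without Db + Ato10 replicate 3. For transcripts of the 10 genes the number was 0 in edgeR and 3 in DESeq2. DESeq2 with a library left out, added after seeing the data, called from 2 to 6 of the 10 genes; it called 19.3% of all genes in the fit with 6 (without Db + Ato10 replicate 3) and 1.44%, 4.60% and 1.64% in the fits with 2 (without Db replicates 1, 2 and 3). The cause was not tested. TPM in place of CPM gave 8 genes whose groups did not overlap in place of 7, the added gene being Atp6v0a4. The share of all tested genes without overlap was not counted on the TPM scale. With limma 9.25% of all tested genes were lower with an unadjusted p under 0.05 on log2(TPM + 1), against 6.39% on log2(FPKM + 1). With the replicate number as a block (replicate block), 7 genes had an unadjusted p under 0.05 and 0 passed the DEG criteria. The ratio differences under the replicate block were -0.45, -0.67, -0.86 and -1.16, equal by construction to those without it, each with a sign-flip permutation p of 0.25, the smallest that 3 pairs allow. Deviations of same-numbered libraries correlated at -0.15, 0.06 and 0.21, so the numbers were not taken to pair the mice. With 3 libraries per group, exact tests could not go below 0.1. Each of the 10 genes had at least 246 counts in every library.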

Other observations

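Markers of cells outside the distal nephron were counted in the same libraries. Of 5 podocyte markers, all tested, 3 were lower and 2 higher, 0 had an unadjusted p under 0.05 in edgeR and DESeq2 called 0, with a median log2 fold change of -0.15 and Podxl the most abundant. The shares over all tested genes were 5.71% lower and 11.2% higher with such a p in edgeR. By DESeq2 1.29% were called lower and 5.17% higher. Of 6 urothelial markers 3 were tested, 1 was lower and 2 were higher, with a median log2 fold change of 0.17. Only Krt20, a keratin of superficial urothelial cells, had an unadjusted p under 0.05, and Upk1a and Upk3b had log2 fold changes of -0.66 (SE 0.44) and 0.17 (SE 0.65) with overlapping groups. Krt20 stood at 0.795, 2.95 and 0.565 CPM in Db replicates 1 to 3 and at 74.2, 70.6 and 18.0 CPM in Db + Ato10 replicates 1 to 3, with no overlap. Upk2, a uroplakin that defines the urothelium, was at or below 1.25 CPM in every library. Upk3a, another, stood at 0.397, 0.0867 and 0.646 CPM in Db replicates 1 to 3 and at 6.13, 2.03 and 0.236 CPM in Db + Ato10 replicates 1 to 3, high in replicates 1 and 2, where Krt20 was highest. Of 5 mast cell markers 1, Ms4a2, was tested. The most abundant over all libraries, Tpsb2, averaged 0.515 TPM. In the Db group Ms4a2 averaged 0.55 TPM and Tpsb2 0.15 TPM. Of 3 pump subunits restricted to other tissues 2 were tested, and Atp6v1e2, an isoform of the testis, was at or below 0.0808 CPM.

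Hepacam2, an intercalated cell adhesion gene, stood at 26.9, 13.5 and 12.2 CPM in Db replicates 1 to 3 and at 13.2, 7.43 and 10.5 CPM in Db + Ato10 replicates 1 to 3. As with Slc26a4 and Oxgr1, Db replicate 1 was the highest library, and the groups overlapped in Hepacam2 and Oxgr1.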
